A study of Mus musculus with 5 samples.

Results

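Cycling ILC2s of the ta-activated libraries were cells in which RNA of at least 4 of 12 genes of mitosis and DNA replication was captured. The 12 genes were Mki67, Top2a, Birc5, Cdk1, Ccna2, Ccnb1, Ccnb2, Cenpf, Ube2c, Nusap1, Tpx2 and Cdc20, and a gene counted when it had at least 1 UMI (unique molecular identifier, which stands for 1 captured RNA molecule). There were 1517 such cells among the 6717 cells kept in the 2 ta-activated libraries and the 16530 cells kept in all 5 libraries. They were 770 of 2895 cells at week 2 (26.6%, exact Clopper-Pearson 95% interval 24.995 to 28.2) and 747 of 3822 cells at week 3 (19.5%, 18.3 to 20.8). The intervals cover counting error only, and each week is 1 library, so the weeks were not tested against each other. Within each library the cycling cells were compared with the cells that had UMIs of none of the 12 genes, 921 at week 2 and 1216 at week 3. Both classes were chosen by the UMIs of these 12 genes in the same cells, so their contrast is a description without a test.

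The libraries came from lungs of female wild-type C57BL/6 mice aged 4 to 8 weeks, with cells of 5 mice pooled in each. ILC2s were sorted as Lin- ST2+ CD127+ Thy1.2+ CD45+ cells. The ta-activated libraries held ILC2s of mice implanted with the TC1 tumour line, taken at week 2 or week 3 and then cultured for 7 days with rhIL-2, rmIL-33 and TSLP at 10 ng/mL each. The ta-non-activated libraries were freshly sorted cells of tumour-bearing mice at the same weeks, and the naïve library was freshly sorted cells of mice without a tumour, and no library of cells cultured without the cytokines was analysed here. Whether fresh and cultured cells of a week came from the same pool is not given in the labels. The deposited totals were 68919437 UMIs at week 2 and 71126524 at week 3 for the ta-activated libraries. The 2 ta-activated libraries shared 2 cell barcodes.

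Group 2 innate lymphoid cells (ILC2s) are tissue lymphocytes without an antigen receptor that answer IL-33 and TSLP with the cytokines IL-5 and IL-13. A dividing cell first loads the MCM helicase on its origins, copies its DNA and makes new histones in S phase, and then builds a spindle and kinetochores to part the chromosomes in mitosis. Many genes of late cycle are held off in resting cells by the DREAM complex at promoter elements called CHR, and the CCAAT box nearby is bound by NF-Y, while E2F factors act on many genes of S phase.

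Promoter sequences are shown because the 12 genes are a group whose late-cycle timing is known to run through these elements. RefSeq (GRCm38.p6) gave a window of 250 bases before to 50 after the start for 10 of the 12 genes. The CHR letters were searched as TTTGAA and, as a second form, as TTCGAA, on both strands. Either form was in 7 of the 10 genes, against 21.7% of the 27025 genes in the table. CCAAT on either strand was in 8 of the 10 genes, against 41.1% of all genes. These are letter matches in a window and not bound sites. The last 150 bases before the start follow for 3 genes, picked among those with both kinds of letters in this stretch. Mki67 and Top2a also have both kinds in it but are not shown. The stretch holds neither for Birc5 and Nusap1 and only the CCAAT letters for Ccnb1, Ccnb2 and Cenpf. It is written 5′ to 3′ on the strand of each of the 3 genes, with CHR letters and CCAAT letters of either strand in capitals. They are the cyclin-dependent kinase Cdk1 (chr10:69352913-69353062, minus strand), the activator of the anaphase-promoting complex Cdc20 (chr4:118437344-118437493, minus strand) and its ubiquitin-conjugating enzyme Ube2c (chr2:164769779-164769928, plus strand).
Cdk1: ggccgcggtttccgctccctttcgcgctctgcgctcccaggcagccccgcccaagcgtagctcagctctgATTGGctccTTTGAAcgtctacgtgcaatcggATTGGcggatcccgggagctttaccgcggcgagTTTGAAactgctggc
Cdc20: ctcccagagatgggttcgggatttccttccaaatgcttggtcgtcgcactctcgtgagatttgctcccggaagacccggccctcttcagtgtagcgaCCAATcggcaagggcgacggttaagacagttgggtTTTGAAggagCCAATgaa
Ube2c: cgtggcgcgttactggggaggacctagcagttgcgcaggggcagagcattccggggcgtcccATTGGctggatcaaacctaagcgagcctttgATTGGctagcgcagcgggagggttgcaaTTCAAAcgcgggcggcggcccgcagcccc

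The share of genes with a letter match differed between gene groups outside the 12. Either form of the CHR letters was found for 23 of 30 matched genes of the spindle and cytokinesis list (76.7%) and for 12 of 19 of the kinetochore list (63.2%), and for 6 of 18 of the origin licensing and helicase list (33.3%). Among the 5775 matched genes of the comparison below it was found for 16.5%. The E2F letters, searched as TTTGGCGC and as TTTCGCGC on both strands, were found for 6 of 18 genes of the licensing list (33.3%), 2 of 30 of the spindle and cytokinesis list (6.67%) and 0 of 19 of the kinetochore list, against 2.15% of the 5775.

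Most cells had few or nearly all of the 12 genes. At week 2, 339 of the 770 cycling cells had UMIs of all 12 genes and 472 (61.3%) had 10 to 12. At week 3, 286 of 747 had all 12 and 446 (59.7%) had 10 to 12. Few cells lay between, with 36 to 58 cells at each number from 5 to 9 genes in week 2 and 37 to 50 in week 3. At the threshold, 89 and 87 cells had exactly 4 genes, and 159 and 225 cells just outside it had exactly 3, week 2 first. Their median depths were 18639 and 21760 UMIs inside and 18184 and 19040 outside.

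**Figure D1:**
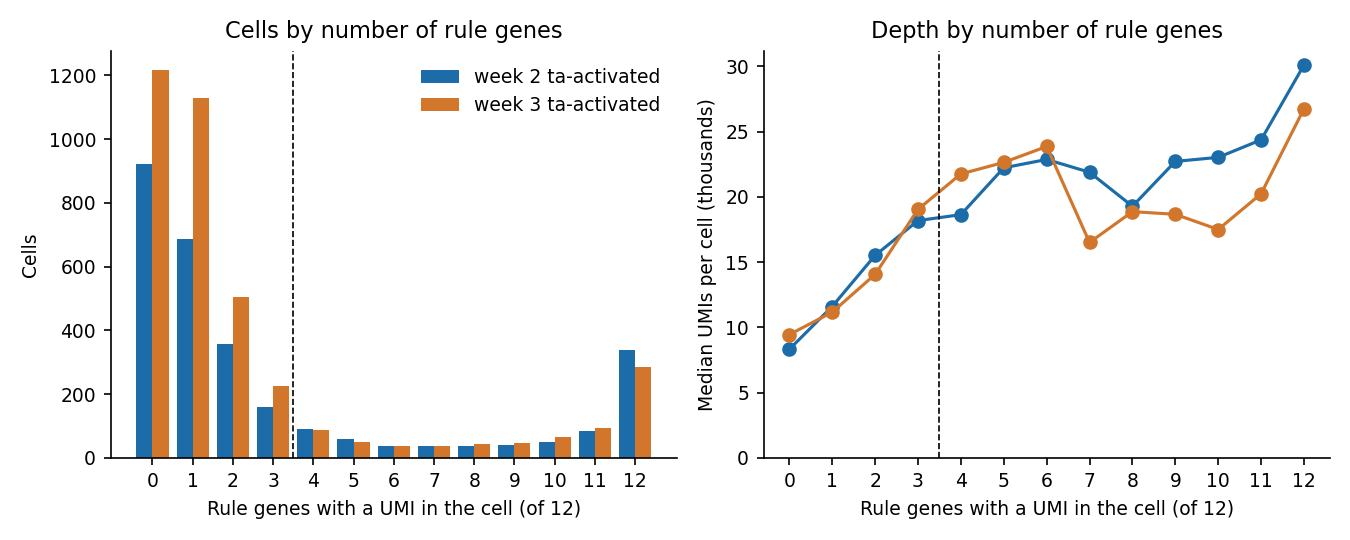
Number of cells (left) and median UMIs per cell (right, scaled as its axis states) against the number of the 12 rule genes with a UMI, for the 2 ta-activated libraries; the dashed line marks the limit of 4 genes. Most cycling cells sit at 10 to 12 genes, and the median depth is 8313 and 9445 UMIs at none of the genes and 30112 and 26762 at all 12.

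Cycling cells were deeper than the cells with none of the 12 genes. Their median was 25770.5 UMIs against 8313 at week 2, and 23152 against 9445 at week 3, which is 3.10 and 2.45 times as many. They also had more genes, 4579 against 2438 and 4561 against 2762, and slightly more mitochondrial counts, 3.30% against 2.92% and 3.498% against 2.96%. A deeper cell has more chances to show each of the 12 genes. With every cell of at least 5000 UMIs thinned to 5000, the rule was met by 21.1% of cells at week 2 and 15.4% at week 3, with 206 and 286 shallower cells left out. Without thinning the share in the same deeper cells was 28.4% at week 2 and 20.3% at week 3. Doublets, droplets with more than 1 cell, can also be deep, and their part in the class was not tested, since the caller Scrublet marked 0 of 2895 and 0 of 3822 cells and so had not worked.

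Levels are given as CPM, the UMIs of a gene per 1000000 UMIs summed over the cells of a class, so that the depth of a class cancels. The 12 genes themselves are at 0 in the comparison class by construction. In the cycling cells Top2a, which unlinks DNA strands, stood at 602 CPM at week 2 and 817 CPM at week 3, and Ube2c at 642 and 561 CPM. The growth-fraction marker Mki67 stood at 341 and 544 CPM, the survivin gene Birc5 at 447 and 383 CPM, and Cdk1 at 254 and 214 CPM. The cyclins were lower, with Ccna2 at 108 and 112 CPM, Ccnb1 at 109 and 90.7 CPM and Ccnb2 at 114 and 121 CPM. The kinetochore gene Cenpf stood at 188 and 261 CPM. The spindle genes Nusap1 and Tpx2 had 230 and 224 CPM at week 2, and 234 and 205 CPM at week 3. Cdc20 was the lowest of the 12 in both weeks, at 85.7 and 79.7 CPM.

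Outside the 12, a gene was called when its log2 ratio of CPM (with 1 CPM added) passed 1, that is 2-fold, the same way in both libraries. Of 7240 genes with at least 10 CPM in a class of each library, 482 were higher in cycling cells (6.66%) and 65 were lower (0.898%). The median log2 ratio of all 7240 genes was 0.05. The rule used these same cells, so nothing is read from the counts below against those shares. A gene could pass the 10 CPM filter through either class. Where only the cycling class reached it, the ratio was bound to lie above 0, and where only the cells with none did, below 0. For a gene near 0 in one class the size of the ratio also depends on the 1 CPM added. Both limits apply to the list counts and medians below. Of the 482 higher genes, 187 belonged to a gene list described here and 295 to none. Of the 10 genes with the largest mean ratio among those with at least 50 CPM, Hist1h1b (a linker histone of S phase) stood at 243 CPM against 1.37 at week 2 and 477 against 2.40 at week 3. Pclaf, a partner of the replication clamp, followed with 605 against 5.26 CPM and 603 against 4.01 CPM. The others were Hmmr, Cenpe, Hist1h2ap, Cdca3, Knl1, Kif11, Esco2 and Spc24, with mean log2 ratios from 5.81 (Spc24) to 6.58 (Hmmr).

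Genes of S phase were higher through nearly the whole lists, although the rule is mostly made of genes of later phases. Of the origin licensing and helicase genes, 17 of 20 considered were higher and 0 lower, with a median log2 ratio of 2.29. The helicase loader gene Cdt1 had 28.9 against 3.26 CPM at week 2 and 23.9 against 4.01 at week 3, and the helicase subunit Mcm5 had 74.6 against 5.47 and 83.0 against 8.25. Mcm10, Cdc45 and Gins2, which turn the loaded helicase on, led the list with log2 ratios of 4.28 and 4.80, 4.11 and 4.64, and 3.76 and 3.22. The origin recognition genes Orc4, Orc3 and Orc2 were the 3 not called, with Orc4 at 37.8 against 37.0 CPM and 45.5 against 43.1 CPM. Of 23 genes of the fork and its polymerases, 22 were higher (median 2.37). The sliding clamp gene Pcna had 112 against 19.3 CPM and 93.9 against 16.8 CPM. All 16 nucleotide supply genes were higher (median 1.90), led by the ribonucleotide reductase subunit Rrm2 at 245 against 3.78 CPM and 178 against 2.00 CPM.

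Histone genes of both kinds were mostly higher. Replication-dependent histone transcripts mostly end in a stem-loop and not in a poly(A) tail, so a poly(A)-primed 3′ library holds only part of them. Of the 12 considered, 10 were higher, among them Hist1h2ap at 154 against 1.26 CPM and 489 against 6.41 CPM. Hist1h2bc was lower, at 51.7 against 106 CPM and 46.5 against 98.7 CPM. Of 13 variant histones and chaperones 10 were higher, including H2afz at 2206 against 409 CPM and 1734 against 342 CPM, while H3f3a, which resting cells also make, had log2 ratios of 0.13 and -0.20. DNA repair genes were higher in 13 of 19 (median 3.10), with the recombinase partner Rad51ap1 at 70.5 against 0.526 CPM and 76.9 against 0.721 CPM.

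The lists of mitosis had the highest medians. All 22 kinetochore and spindle checkpoint genes considered were higher (median 4.77), from Bub3 (1.04 and 1.05) to Cenpe, the kinetochore motor, at 136 against 0.526 CPM and 194 against 1.68 CPM. Among them were genes considered only through the cycling class, such as Cenpn at 12.4 against 0.210 CPM and 12.5 against 0.320 CPM. All 31 spindle and cytokinesis genes considered were higher (median 4.43). The microtubule regulator Stmn1 had 1048 against 22.7 CPM and 869 against 14.9 CPM. Of 19 cohesin and condensin genes, 16 were higher (median 3.51), led by the cohesin acetyltransferase Esco2 at 64.9 against 0.105 CPM and 86.2 against 0.561 CPM. The securin gene Pttg1 was the exception in direction, at 69.4 against 93.3 CPM and 103 against 115 CPM.

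Regulators of the cycle moved unevenly. Of 20 cyclins and kinases, 10 were higher. The kinase subunit Cks1b had 373 against 9.04 CPM and 285 against 6.33 CPM, and Ccne2, a cyclin of S phase entry, 39.7 against 2.31 CPM and 33.2 against 2.80 CPM. Ccnd2, a cyclin of G1 that follows growth signals, ran the other way at 544 against 903 CPM and 545 against 801 CPM, short of 2-fold. Of 15 E2F, MuvB and MYB factors, 9 were higher, led by E2f8 (3.96 and 4.73), E2f7 and Foxm1. Among 20 inhibitor and quiescence genes, Btg1, an antiproliferative gene of resting lymphocytes, was lower at 482 against 1345 CPM and 599 against 1432 CPM. Klf4 was lower as well, at 3.999 against 21.5 CPM and 4.71 against 12.01 CPM. Rbl1, the p107 pocket protein, was the 1 member higher, and the CDK inhibitor gene Cdkn2c had log2 ratios of 0.99 and 1.85. In both libraries 6 of the 20 were above 0 and 12 below. Cdkn2a was above, at 77.6 against 48.1 CPM and 53.6 against 16.2 CPM. Klf2 was below, at 9.72 against 16.0 CPM and 2.62 against 17.4 CPM. Cdkn1a, the most abundant member in cycling cells, differed by week, at 606 against 651 CPM and 792 against 433 CPM.

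**Figure D2:**
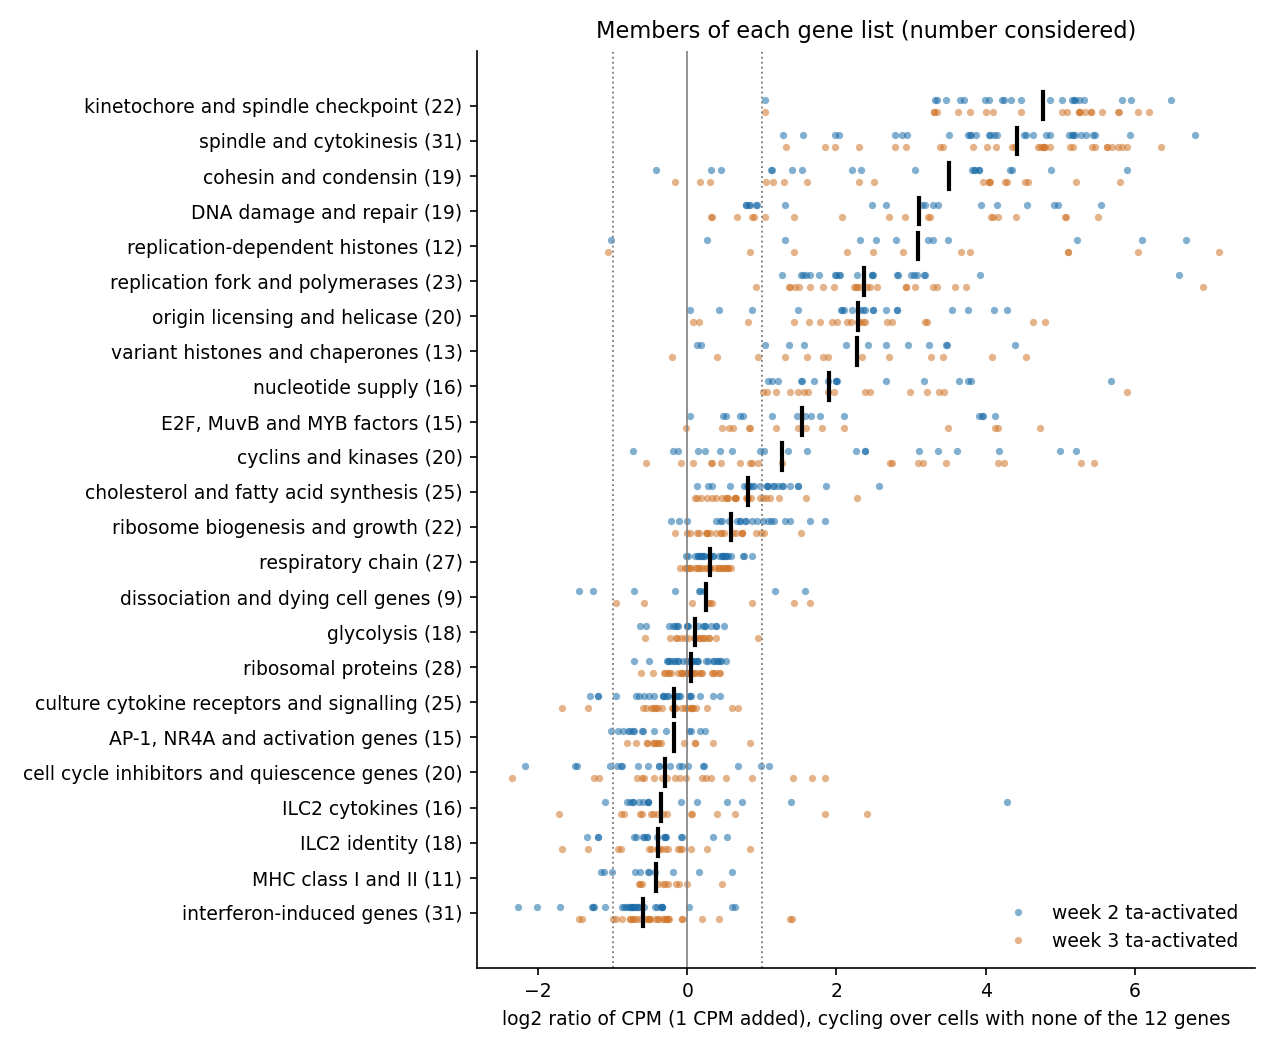
Log2 ratio of CPM in cycling cells over cells with none of the 12 genes (horizontal axis) for each member of the lists with at least 9 genes considered; each point is 1 gene in 1 library, the black bar is the list's median of the mean over both libraries, and dotted lines mark 2-fold. Kinetochore and spindle genes sit farthest right with medians of 4.77 and 4.43, and interferon-induced genes farthest left with -0.59.

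RNA of ILC2 identity genes was present in the cycling cells, mostly at lower levels than in the cells with none. Of 18 identity genes considered, 0 were higher and 2 were lower, and 15 were below 0 in both libraries and 2 above (median log2 ratio -0.39), where 2691 of all 7240 genes were below 0 in both. Gata3, the defining transcription factor, stood at 493 against 651 CPM at week 2 (log2 ratio -0.40) and 739 against 1034 CPM at week 3 (-0.48). After thinning to 5000 UMIs, Gata3 was seen in 81.3% and 92.2% of cycling cells and in 87.2% and 98.1% of the cells with none, week 2 first. Thy1, the sorting marker, ran higher in cycling cells at 160 against 110.3 CPM and 153 against 85.4 CPM, short of 2-fold. The 2 members called lower were receptors for the culture cytokines. Il7r, the IL-7 receptor chain that TSLP signalling also uses, had 361 CPM (Poisson 95% interval 353 to 368) against 830.4 CPM at week 2 and 388 against 973 CPM at week 3. Il1rl1, the IL-33 receptor ST2 used for the sort, had 22.3 against 52.6 CPM and 54.9 against 179 CPM. Of 25 receptor and signalling genes of the culture cytokines, these were the only 2 called, and the IL-2 receptor chain Il2ra had log2 ratios of 0.34 and 0.05.

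**Figure D3:**
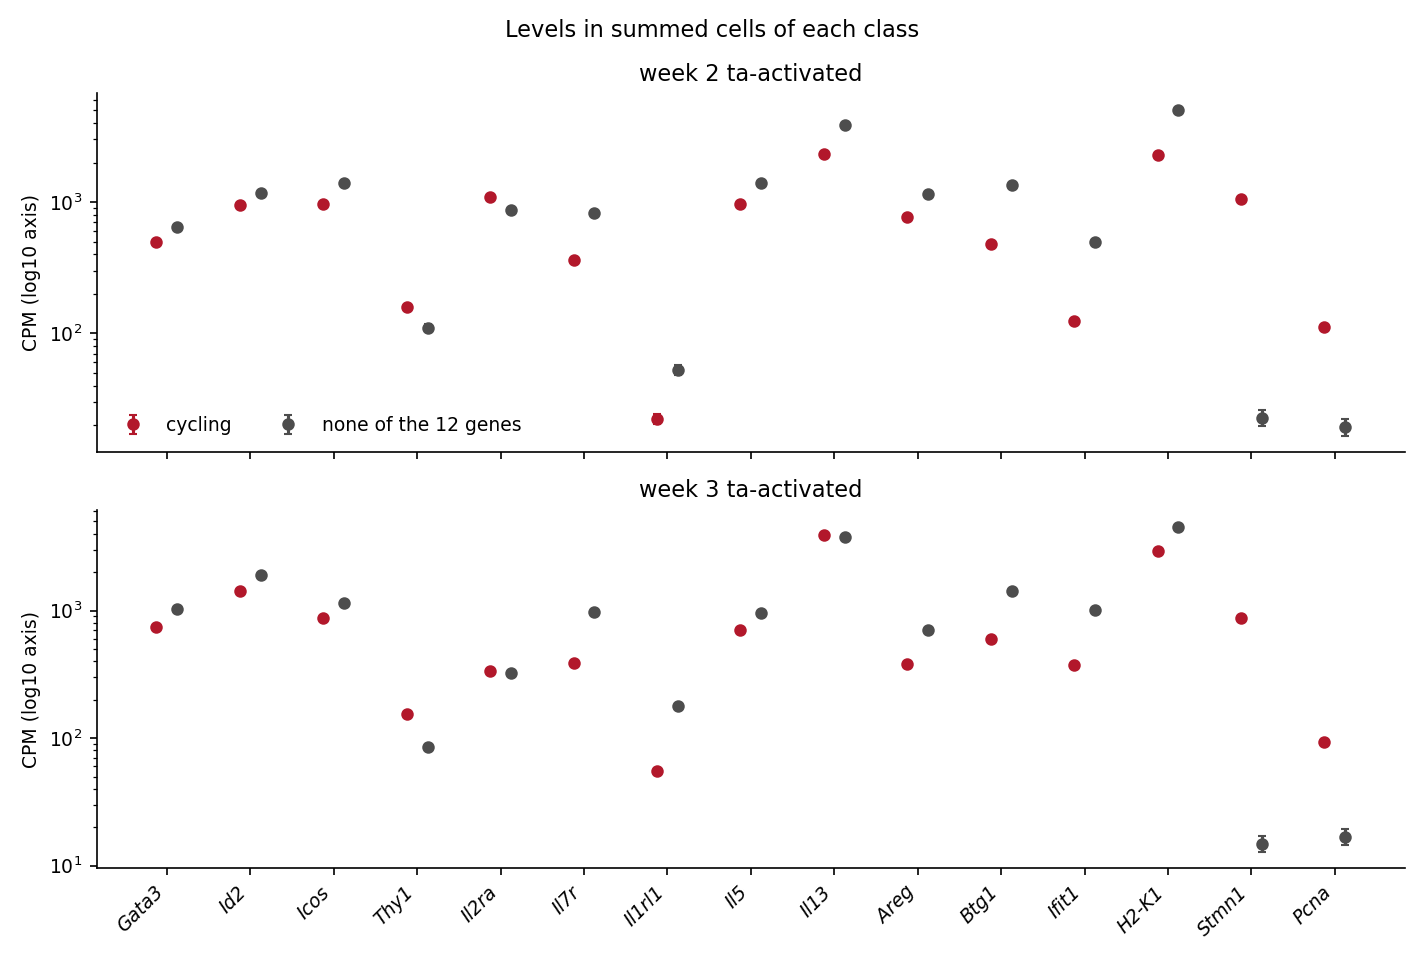
CPM on a log10 axis of 15 genes in summed cycling cells (red) and summed cells with none of the 12 genes (grey) of each ta-activated library, with exact Poisson 95% intervals that are mostly smaller than the points. Il7r, Il1rl1, Btg1, Ifit1 and H2-K1 lie lower and Thy1, Stmn1 and Pcna higher in cycling cells of both libraries, while Il13 lies lower at week 2 (2315 against 3850 CPM) and level at week 3 (3877 against 3745 CPM).

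Il5 and Il13 were not called in either direction. Il5 stood at 973 against 1402 CPM and 698 against 961 CPM, and Il13 at 2315 against 3850 CPM and 3877 against 3745 CPM. The lymphotoxin gene Ltb had 218 against 470 CPM and 781 against 1406 CPM, and the growth factor gene Areg 771 against 1158 CPM and 381 against 709 CPM. The chemokine gene Cxcl10 had 45.99 against 81.2 CPM and 384 against 538 CPM, and Calca had 138 against 199 CPM and 201 against 668 CPM. Of 16 cytokine genes considered, only Il9 and Ccl1 were called, both higher, and both rested on few cells. Il9 stood at 79.6 against 29.7 CPM and 609 against 113 CPM. At week 2, 22 of 770 cycling cells had an Il9 UMI and 3 of them held 64.0% of the UMIs, and at week 3, 71 of 747 had one and 3 held 62.9%. Ccl1 stood at 30.9 against 0.631 CPM and 173 against 47.3 CPM, and 1 cell held 743 of its 787 UMIs in week 2. At week 3, 54 of 747 cycling cells had a Ccl1 UMI and 3 of them held 48.3% of the UMIs. Among the cells with none at week 3, 47 of 1216 had one and 3 held 87.3%. Without the cells of the top 5% of UMIs the mean log2 ratio was -0.03 for Il9 and -0.06 for Ccl1, so neither call held.

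Genes of interferon response and MHC class I ran low. Of 31 interferon-induced genes considered, 2 were lower and 0 higher, but 27 were below 0 in both libraries (median log2 ratio -0.59). Among all 7240 genes, 2691 were below 0 in both. The 2 called were the antiviral genes Ifit1, at 124 against 500.4 CPM and 377 against 1003 CPM, and Ifit3, at 53.2 against 261 CPM and 209 against 577 CPM. Ifitm1 and Ifitm2 ran the other way, with log2 ratios of 0.65 and 1.40, and 0.60 and 1.37. Of 11 MHC genes, none was called and 9 were below 0 in both libraries. The class I genes H2-K1 and H2-D1 had log2 ratios of -1.12 and -0.64, and -1.16 and -0.65. The class II genes H2-Ab1 and H2-DMa had 0.60 and 0.00, and 0.16 and 0.46, and H2-Aa and H2-Eb1, too low at week 3 to be considered, had 25.4 against 12.5 CPM and 24.2 against 14.1 CPM at week 2. The 10 genes with the smallest mean ratios, among those called lower with at least 50 CPM, also included Trim30c (-4.18 and -2.48), the surface gene Ly6c1 (229 against 994 CPM, then 5.88 against 52.7 CPM), Cd200r3 (32.5 against 153 CPM, then 36.4 against 168 CPM), Slfn5 and Ormdl3. The checkpoint ligand gene Cd274, Lilrb4a and Tph1, the enzyme that starts serotonin synthesis, completed the 10. Tph1 had 76.8 against 357 CPM and 989 against 2075 CPM.

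Metabolic lists moved little or modestly. All 25 cholesterol and fatty acid synthesis genes were above 0 in both libraries, where 3375 of all 7240 genes were, and 6 were higher (median 0.81), led by the desaturase Scd1 at 18.0 against 2.21 CPM and 17.1 against 2.72 CPM. Of 22 genes of ribosome biogenesis and growth 2 were higher (Cad and Srm, median 0.58), and Myc had 0.78 and 0.13. Respiratory chain genes (27, median 0.31), glycolysis genes (18, median 0.11) and ribosomal proteins (28, median 0.05) had 0 calls. The last 2 medians are not distinct from 0 across settings: that of glycolysis was -0.03 without the top 5% of UMIs, and that of ribosomal proteins was -0.01 with TMM scaling. Of 15 AP-1, NR4A and activation genes none was called (median of the mean ratios -0.18). The medians within the libraries were lower, at -0.61 at week 2 and -0.40 at week 3. In both libraries 8 of the 15 were below 0 and 1 was above, where 2691 of all 7240 genes were below and 3375 above. Of the dissociation and dying cell list, the nuclear RNA Malat1 had log2 ratios of -1.45 and -0.96.

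Markers of other cell types were low in the cycling cells. The 10 T-lineage markers summed to 15.5 CPM at week 2, against 37.0 in the cells with none, and to 16.4 against 16.0 CPM at week 3. Cd3d was the most abundant at week 2 with 7.65 CPM and Lef1 at week 3 with 11.1 CPM, Rag1 and Rag2 were at 0 in both weeks, and Cd4 and Cd8a were at 0 at week 2. In all, 5 of the 10 were at 0 at week 2 and 2 at week 3. A UMI of Cd3d, Cd3e or Trdc was seen in 123 cycling cells at week 2 (16.0%) and 71 at week 3 (9.505%), and in 7.49% and 3.95% of the shallower cells with none. The myeloid list summed to 0.510 against 1.16 CPM at week 2 and 1.65 against 0.961 CPM at week 3, and the NK and ILC1 list to 31.3 against 26.3 and 1.80 against 3.604 CPM. The mast cell and basophil list summed to 115 against 129.5 CPM at week 2, of which Mcpt8 gave 105 CPM, and to 15.5 against 61.8 CPM at week 3, and its member Kit was called lower. The B cell list summed to 43.9 against 27.9 and 20.4 against 17.6 CPM, and the epithelial and endothelial list to 22.2 against 59.4 and 11.6 against 14.6 CPM. Their part in the results was not tested, beyond the cells gated on Gata3 described next. After thinning, Cd79a was seen in 1 of 764 and 1 of 717 cycling cells, and Lyz2 and Sftpc in 0.

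Cells rich in granzyme C were counted in the 2 classes compared, and were found in week 2 and not in week 3. Gzmc, a granzyme of activated lymphocytes, stood at 1414 against 436 CPM at week 2 and 1.75 against 0.160 CPM at week 3. In week 2, 36 of 770 cycling cells (4.68%, 3.30 to 6.41) had at least 10 Gzmc UMIs per 10000 and held 99.6% of the Gzmc UMIs of cycling cells, against 10 of 921 cells with none (1.09%). In week 3 there were 0 of 747 such cells (95% upper limit 0.493%). Gzmb stood at 1317 against 1369 CPM and 294 against 356 CPM. Keeping only cells with a Gata3 UMI and none of Cd3d, Cd3e, Trdc or Gzmc left 536 and 660 cycling cells, and the Il7r mean log2 ratio was then -1.26, as it was in all cells.

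Levels outside the rule followed different courses along the number of rule genes. In cells with 1 to 3 of the 12 genes the licensing and fork lists together had a median of 5.37 and 5.58 counts per 10000 UMIs in a cell, against 5.10 and 5.03 with none and 31.8 and 34.4 in cycling cells. The licensing list summed to 283 and 308 CPM with none, 295 and 325 CPM with 1 gene, 391 and 400.3 CPM with 2, 471 and 485 CPM with 3, 702 and 529 CPM with exactly 4, and 1429 and 1439 CPM with 10 to 12. The kinetochore list summed to 321 and 233 CPM with 4 genes and to 2398 and 2687 CPM with 10 to 12. Ccne2 peaked earlier, at 61.5 and 50.3 CPM with 7 to 9 genes, and stood at 39.9 and 34.1 CPM with 10 to 12. Replication-dependent histones stood at 217 and 325 CPM with none, 347 and 278 CPM with 3 genes and 242 and 256 CPM with 4. With 10 to 12 genes they stood at 1262 and 3090 CPM.

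**Figure D4:**
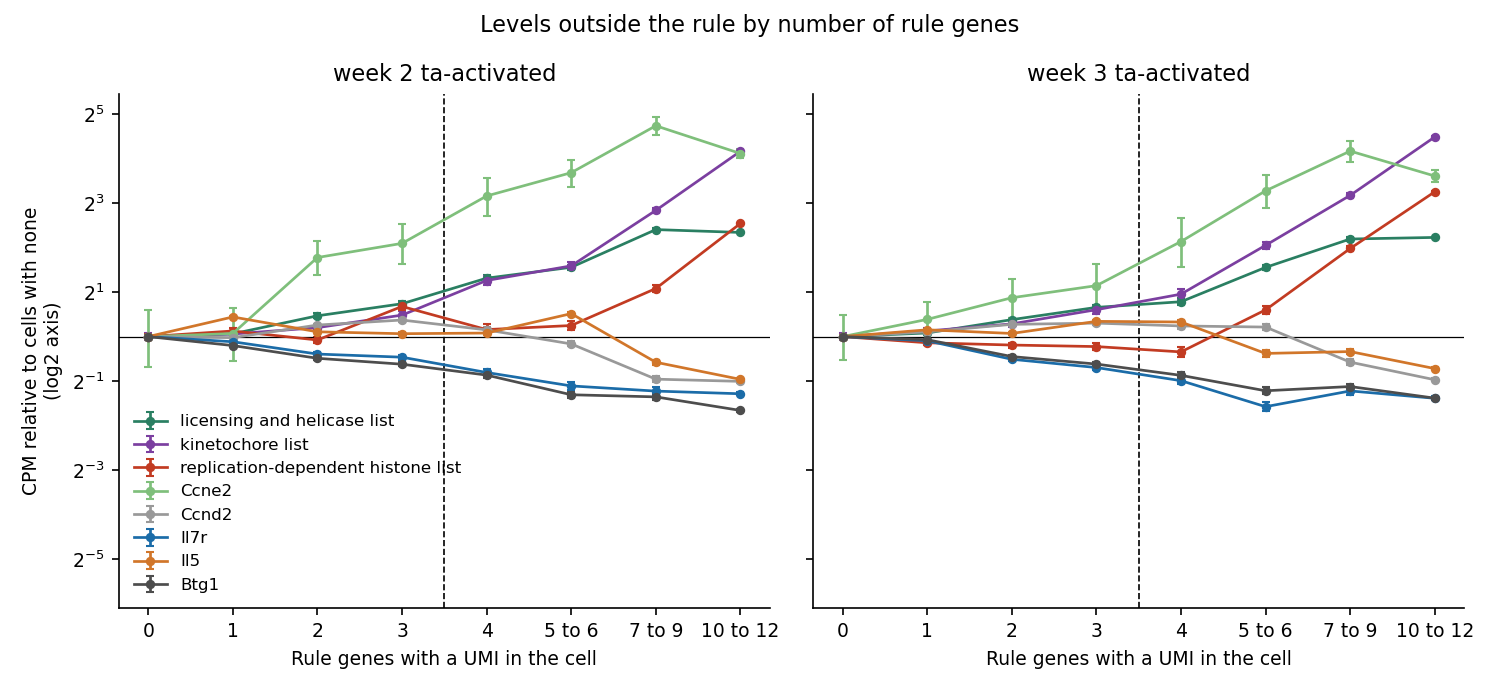
CPM relative to the cells with none of the 12 genes, on a log2 axis, against the number of rule genes with a UMI, for 3 summed gene lists and 5 genes; bars are exact Poisson 95% intervals and the dashed line marks the limit of 4 genes. Ccne2 peaks at 7 to 9 genes, kinetochore and histone lists rise to 10 to 12, and Il7r and Btg1 lie below the cells with none from 1 gene on, while Il5 and Ccnd2 lie below them in both libraries from 7 genes on.

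ILC2 genes also differed along the same axis. Il7r declined from 830.4 CPM with none through 603 CPM with 3 genes to 341 CPM with 10 to 12 at week 2, and from 973 through 602 to 373 CPM at week 3. Btg1 declined likewise, from 1345 to 427 CPM and from 1432 to 549.7 CPM. Il5 was as high at 4 genes as with none (1482 against 1402 CPM, and 1207 against 961 CPM) and stood at 721 and 584 CPM with 10 to 12. Ccnd2 stood at 1002 and 946 CPM with 4 genes and at 449.8 and 409 CPM with 10 to 12. Il13 peaked at different points in the weeks. At week 2 it was highest with 1 gene, at 5071 CPM, and stood at 3323 CPM with 4 genes and 1868 CPM with 10 to 12. At week 3 it was highest with 4 genes, at 6869 CPM, and stood at 3202 CPM with 10 to 12. The cells with 10 to 12 genes also had the highest median depths, 28299.5 and 24104.5 UMIs.

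Members were then split at their library's median of the licensing and fork level, 385 and 385 cells at week 2 and 373 and 374 at week 3. No member of these 2 lists is among the 12 genes of the rule. Cells above the median had Ccne2 at 73.5 against 8.79 CPM and 58.6 against 12.6 CPM, and Rrm2 at 401 against 103 CPM and 323 against 60.7 CPM. The kinetochore and spindle lists together were also higher above the median, at 90.01 against 57.3 counts per 10000 UMIs at week 2 and 103 against 54.2 at week 3, as medians over cells. Among single genes, Mki67 had 446 against 246 CPM and 756 against 373 CPM, and the mitotic kinase gene Plk1 had 70.1 against 52.4 CPM and 89.4 against 58.3 CPM. Cenpe had 152 against 121 CPM and 237 against 159 CPM, and Ccnb1 had 112 against 107 CPM and 98.2 against 84.6 CPM. Cdc20 ran the other way at 70.9 against 99.4 CPM and 74.8 against 83.7 CPM. Il13 was lower in the cells above the median, at 1697 against 2881 CPM and 2699 against 4828 CPM, and so was Il5 at 639.5 against 1278 CPM and 461 against 889 CPM. Ccnd2 had 378 against 697 CPM and 335 against 715 CPM. Above and below the median, the depths were 26159 and 24976 UMIs at week 2 and 21624 and 25010.5 at week 3. Over members, the levels of S-phase and mitosis genes had a Pearson r of 0.30 (770 cells) and 0.46 (747 cells), both read from the same libraries and given without a test.

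The same rule found 190 cycling cells among 1823 at week 2 ta-non-activated (10.4%), 177 of 1601 at week 3 ta-non-activated (11.1%) and 34 of 6389 in the naïve library (0.532%, 0.369 to 0.743). The cycling cells of fresh week 3 carried T-lineage RNA, with Cd3d at 527 CPM and Ptcra at 53.5 CPM, beside Gata3 at 71.1 CPM and Il13 at 0.339 CPM, and 4 of the 177 had no UMI of Cd3d, Cd3e or Trdc. Depth differed as well, with a median of 4517 UMIs per kept naïve cell, 16090 and 4396 for ta-non-activated cells at week 2 and week 3, and 13636 and 12296.5 for ta-activated cells, and its part in these shares was not tested. Cycling cells of fresh week 2 had Il13 at 6081 CPM, Il9 at 13141 CPM and Gata3 at 299 CPM. Those of the naïve library had Gata3 at 656 CPM, Il7r at 691 CPM and Il13 at 116 CPM, with 3 UMIs there worth 6.43 CPM.

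Whether the contrast of cycling and other cells differed between cultured and fresh ILC2s could be tested over libraries, since culture is not part of the rule. Counts were summed per class and library after leaving out cells with a UMI of Cd3d, Cd3e or Trdc, which kept 647 and 676 cultured, 178 fresh week 2 and 32 naïve cycling cells. The fresh week 3 library had only 4 such cells and was not used. The test was edgeR's quasi-likelihood interaction test with library as a block, 2 residual degrees of freedom and Benjamini-Hochberg adjustment over 12143 genes. A total of 0 genes had a larger and 2 a smaller contrast in culture (0.0165%), while 777 and 286 had an unadjusted p under 0.05. DESeq2 called 13 and 30. Counts depended on the naïve library: without it edgeR called 143 and 69, and without fresh week 2 it called 19 and 17. In both cases the fresh arm is 1 library, the spread comes from the 2 cultured libraries alone, and the fresh library is assumed to vary like them. Culture, tumour, the sequencing of each library and its Cell Ranger version cannot be told apart in the naïve arm.

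Ifitm1, an interferon-induced membrane gene, had the smallest p (log2 difference of contrasts -8.16 ± 0.585 SE, adjusted p = 0.00522, edgeR). In cultured cells it stood at 265 against 202 CPM and 126 against 46.7 CPM in cycling and other cells. In fresh cells it rested on very few: 2 of 32 naïve cycling cells held all 84 UMIs (47 and 37), 2 of 178 at week 2 held 77.1% of 170 UMIs, and the cells with none had 8 and 0 UMIs. None of the fresh cycling cells shared a barcode with a ta-activated library. Itgae, the integrin chain CD103, was the other gene (log2 difference -3.54 ± 0.305 SE, adjusted p = 0.0494, edgeR), just under the threshold. It stood at 55.9 against 90.8 CPM and 64.2 against 78.3 CPM in culture, and at 42.1 against 4.20 CPM (naïve, 18 and 105 UMIs) and 10.2 against 1.15 CPM (fresh week 2, 61 and 16 UMIs) in fresh cells. Over the alternatives its adjusted p ran from 1.08e-13 (DESeq2) to 0.9999 (edgeR without the library block), and it was above the threshold in 7 of them.

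The ILC2 genes that were lower in cultured cycling cells did not pass this test. The log2 difference of contrasts was 0.00 ± 0.203 SE for Gata3 (adjusted p = 1.0, edgeR; 1.02 with an adjusted p of 0.0654 after thinning to 2000 UMIs), -0.44 ± 0.314 for Il7r (adjusted p = 0.736), -0.37 ± 0.320 for Il1rl1 (adjusted p = 0.784) and -0.06 ± 0.268 for Il5 (adjusted p = 0.971). The fitted contrasts themselves were -1.33 in culture and -0.89 fresh for Il7r, -1.67 and -1.31 for Il1rl1, and -1.44 and -1.35 for Btg1. With 2 residual degrees of freedom a p above the threshold does not show that the contrasts were alike. For Il7r the adjusted p (edgeR) was 0.0278 without the naïve library, where fresh cells are 1 library with no spread of their own.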

How the data were processed

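Single-cell RNA was counted by droplet sequencing in 5 libraries, each a pool of 5 mice. The authors deposited UMI counts per gene and cell, made with Cell Ranger on GRCm38 (the header of the naïve file names version 6.0.0, those of the other 4 name 3.0.2), with Seurat 3 named in the submitters' processing notes; the annotation is not given in the sources used here. A barcode counted as a cell from 200 detected genes on when mitochondrial genes gave less than 5% of its UMIs, over 27726 genes common to all libraries. For a symbol with several identifiers, the one with most UMIs was used. The members and gene lists were chosen with earlier results of these data known.

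Counts of cycling cells (at least 4 of 12 rule genes) and of cells with none were summed per library and scaled to CPM, with exact Poisson 95% intervals. Genes with at least 10 CPM in a class of each library were considered, 1 CPM was added before log2, and a call needed 2-fold the same way in both libraries. Weeks are 1 library each and stand as replicates of culture, so spread between them includes the week. Shallow cells were left out wherever counts were thinned. Cells with exactly 4 genes were shown apart from those with 5 to 6, after the data were seen. The design took 4 to 6 together.

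The interaction test used edgeR 4.0.16 (quasi-likelihood, R 4.3.3), with at least 20 cells per class and library and Benjamini-Hochberg adjustment at 0.05. On simulated counts for its 12143 genes it recovered 59 of 89 genes changed by 2 and 92 of 111 changed by 3 on the log2 scale, with 7 false calls. The changed genes left out those with the lowest mean counts, so recovery was not measured for these. Counts held by a few cells, as for Ifitm1, were not simulated. DESeq2 1.42.0 was an alternative. Other steps used Python 3.11.15, numpy 2.4.6, scipy 1.17.1, pandas 2.3.3, matplotlib 3.10.9 and scanpy 1.11.5.

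Genes to be named were the 12 rule genes, the 10 highest and 10 lowest called genes with at least 50 CPM, the 3 largest and 3 smallest ratios of each list, the genes passing the interaction test, and Gata3, Il1rl1, Il5, Il13, Il7r, Thy1, Gzmb, Ifit1, Cxcl10 and Ltb. Not every gene that the list rule picks is printed, so those printed from a list are not always its extremes. Cdt1, Mcm5, Pcna, H2afz, Cenpn, Ccne2, Cdkn1a, Myc, Gzmc, Lef1, Mcpt8, H2-Aa, H2-Eb1 and the genes given on either side of the S-phase median were chosen after their values were seen.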

Additional observations from a re-analysis of the deposited data

Results flagged for a closer look

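The difference of the cycling contrast between cultured and fresh libraries passed the edgeR quasi-likelihood interaction test (adjusted p = 0.00522 and 0.0494, Benjamini-Hochberg) for Ifitm1, with a log2 difference of -8.16, and for Itgae, with -3.54. In fresh cells Ifitm1 rested on 2 naïve and 15 week 2 cycling cells with a UMI. Jun, an AP-1 gene, ran in opposite directions in the weeks, with log2 ratios of -0.86 at week 2 and 0.84 at week 3, and so did the lactate dehydrogenase gene Ldhb, with -0.63 and 0.94. The difference between the weeks was not tested for either gene.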

How the results depend on the processing

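The share of cycling cells moved most with the number of rule genes required and with depth. At week 2 it was 24.2% with a mitochondrial limit of 10%, 23.7% without one, 32.1%, 23.5% and 21.5% with at least 3, 5 and 6 rule genes, 21.1% after thinning to 5000 UMIs, 28.4% in cells of at least 5000 UMIs without thinning, and 24.5% without the top 5% of UMIs. At week 3 it was 19.2% with a mitochondrial limit of 10%, 19.1% without one, 25.4%, 17.3% and 16.0% with at least 3, 5 and 6 rule genes, 15.4% after thinning, 20.3% in cells of at least 5000 UMIs without thinning, and 17.3% without the top 5%. The alternative without Scrublet calls was not run, since it called 0 cells. Genes 2-fold lower numbered 34 with 10 CPM added (331 higher), 35 in genes of at least 50 CPM (179 higher), and 115 to 218 when called from 1 library alone (609 to 658 higher). With TMM scaling they were 80, with 445 higher. The median of ribosomal proteins turned to -0.0056 with TMM scaling and -0.0033 without the top 5% of UMIs, which also turned glycolysis to -0.032, Il9 to -0.032 and Ccl1 to -0.059; the cause was not tested. Of 6776 ratios of single genes under the alternatives, 6674 kept the sign.

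The interaction test depended on its settings. Beside 0 higher and 2 lower, edgeR gave 1 lower with all genes of at least 1 count, 1 without the T-lineage gate, which also brought in the fresh week 3 library, 0 without the replicate block (library), 1 with at least 3 rule genes, and 182 higher and 21 lower after thinning to 2000 UMIs, where the naïve library had too few cells left and the fresh arm was 1 library. Leaving out 1 library gave 1 to 143 higher and 1 to 69 lower, both most without the naïve library. The arm that lost a library was then 1 library, assumed to vary like the other arm. DESeq2 gave 13 and 30, and the legacy form of the edgeR fit, which made 28 false calls on simulated counts against 7, gave 1 and 5. The legacy form and the unthinned share in cells of at least 5000 UMIs were chosen after seeing the data. Ifitm1 lost its call only without the block.

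Differences that had not passed changed sign. Without the T-lineage gate and with the fresh week 3 library that this adds, they were 0.71 for Il13, 1.15 for Il5, 0.40 for Il7r and 0.85 for Il1rl1, and Gata3 had 0.45. Gate and library were not told apart. Without the replicate block they were 0.35 for Il13 and 0.10 for Il5. Leaving out 1 library in turn gave -1.35 to 0.24 for Il13, -0.44 to 0.14 for Il5, -0.19 to 0.082 for Gata3, -0.91 to 0.044 for Il1rl1 and -1.73 to 5.49 for Ifit1. With at least 3 rule genes Il5 had 0.095. Thinning to 2000 UMIs gave 0.58 for Il13, 0.81 for Il5 and 4.63 for Ifit1, and 1.02 for Gata3, whose sign did not change. Gata3 had -0.013 with all genes of at least 1 count and -0.15 with DESeq2.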
